A study of Mus musculus with 12 samples.

Results

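The genes described here are the replication-dependent histone genes of the mouse histone clusters, read in B220+ splenocytes, a B-cell fraction of the spleen, from 12 mice. A gene was taken as a member when its symbol began with Hist1h, Hist2h, Hist3h or Hist4h and its raw counts summed to at least 60 over the 12 libraries. That left 21 of the 68 cluster symbols in the files, and 21 of the 24421 genes in all: 5 H1, 4 H2A, 5 H2B, 1 H3 and 6 H4 genes. By chromosome, 15 lie on chromosome 13, 3 on chromosome 3, 2 on chromosome 11 and 1 on chromosome 6. The 12 mice, 4 to 5 weeks old, fall into 4 genotypes of 3 mice each. WT mice carry intact Max and no transgene. Max KO mice carry a conditional knockout of Max, the partner protein without which MYC does not bind DNA as it normally does. EuMyc mice carry a Myc transgene, driven in B cells by the immunoglobulin heavy chain enhancer, and intact Max, and EuMyc Max KO mice carry both changes. The series title calls the transgenic cells premalignant. The labels do not say which Cre or promoter drives the deletion, and they state total RNA and standard Illumina library preparation without naming a selection step.

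Replication-dependent histones are the core and linker histones that package newly made DNA, and their genes are normally switched on in S phase and shut down when replication ends. Their mRNAs are unusual in that most end in a short stem-loop rather than a poly(A) tail, and the protein SLBP binds that stem-loop to guide processing, translation and decay. Replacement histones such as H3.3 and H2A.Z are encoded outside the clusters, have ordinary polyadenylated mRNAs for the most part and are made throughout the cell cycle. A library made from poly(A) RNA captures cluster histones poorly, and some cluster genes also have polyadenylated forms in resting or differentiated cells.

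The stem-loop is annotated in most members but not in all, and it is shown here for some of the genes named in the results below. In the GENCODE M21 transcripts a hairpin was taken as a 6-base stem that begins with GG, a 4-base loop and the exact complement of the stem. These make 16 bases in all, and the loop had to read T, then T or C, then T, then A, C or T. The hairpin was found in 15 of the 21 members, after the stop codon in each. It was also in 46 of the 68 cluster symbols, and in 0.0905% of the gene symbols outside the clusters. Capitals mark the stem.
Hist3h2a, H2A, chr11:58955167-58955192, plus strand, mm10: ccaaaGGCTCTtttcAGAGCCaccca
Hist1h1c, H1, chr13:23739507-23739532, plus strand, mm10: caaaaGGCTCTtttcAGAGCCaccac
Hist1h2be, H2B, chr13:23585526-23585551, minus strand, mm10: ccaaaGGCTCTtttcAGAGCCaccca
Hist1h4b, H4, chr13:23757361-23757386, plus strand, mm10: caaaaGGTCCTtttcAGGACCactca
Hist1h4i, H4, chr13:22040961-22040986, minus strand, mm10: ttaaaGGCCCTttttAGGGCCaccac
Hist4h4, H4, chr6:136803993-136804018, minus strand, mm10: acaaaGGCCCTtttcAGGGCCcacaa
H2afx, replacement H2A.X, chr9:44335235-44335260, plus strand, mm10: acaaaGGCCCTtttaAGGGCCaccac
The H1, H2A and H2B hairpins shown share a stem, and the H4 hairpins differ from it in the inner bases of the stem. H2afx was the 1 of 11 replacement histone genes with the hairpin. The members differ in what the annotation places after it. For 5 members (Hist1h3a, Hist1h4b, Hist1h4h, Hist1h4m and Hist2h2ac) the transcript ends within 100 bases of the hairpin, and for 10 it runs on, by 4884 bases in Hist1h1d and by 1643 in Hist3h2a. Of the 6 without the hairpin, Hist1h1b, Hist1h2ak and Hist2h2bb have models that stop at the stop codon, and that of Hist1h1a stops 48 bases after it. Hist1h2bc has a spliced model with 742 bases after the stop codon, and Hist2h2be has 2192 bases after it. The polyadenylation signal AATAAA, searched on the transcript strand, lies in the last 50 bases of the Hist1h1c, Hist1h2ae, Hist2h2be, Hist3h2a, Hist3h2ba and Hist4h4 transcripts, and in 40.6% of all protein-coding transcripts.

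The promoters of 18 of the 21 members were matched by symbol in RefSeq (GRCm38.p6), from 250 bases before the start to 50 after it. Of the motifs searched on both strands, the octamer ATTTGCAT, which binds OCT1 and OCT2, was in 5 of 18 member promoters (1.74% of the 32851 RefSeq promoters), namely in 3 of 4 H2A and 2 of 3 H2B genes. CCAAT was in 13 of 18 (37.4% of all), TATAAA in 11 of 18 (13.6% of all) and the H1 box AAACACA in 4, all of them H1 genes (7.18% of all). The E-box CACGTG, the site preferred by MYC and MAX, was in 0 of 18 member promoters and in 7.15% of all. A match is only a match of letters, and the absence of these letters from the window says nothing about binding. None of the motifs contains another. The promoters of 3 members are shown because they carry the motifs of 3 classes. Each of the 3 was called in EuMyc against WT or in EuMyc Max KO against EuMyc. Capitals mark these motifs, other than the E-box, on either strand.
Hist3h2a, H2A, chr11:58954435-58954734, plus strand, GRCm38.p6: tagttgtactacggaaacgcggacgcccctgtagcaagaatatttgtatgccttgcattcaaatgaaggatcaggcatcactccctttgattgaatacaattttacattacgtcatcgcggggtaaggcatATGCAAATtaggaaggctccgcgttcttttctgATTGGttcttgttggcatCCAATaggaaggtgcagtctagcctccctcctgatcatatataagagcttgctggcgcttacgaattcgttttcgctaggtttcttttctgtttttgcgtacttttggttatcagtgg
Hist1h1b, H1, chr13:21780576-21780875, minus strand, GRCm38.p6: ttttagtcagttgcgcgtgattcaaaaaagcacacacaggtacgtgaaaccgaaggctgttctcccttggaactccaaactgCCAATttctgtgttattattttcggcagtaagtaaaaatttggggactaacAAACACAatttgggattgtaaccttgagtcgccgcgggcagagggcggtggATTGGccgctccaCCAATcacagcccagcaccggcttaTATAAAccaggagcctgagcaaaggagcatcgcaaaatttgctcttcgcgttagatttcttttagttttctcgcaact
Hist1h4i, H4, chr13:22041313-22041612, minus strand, GRCm38.p6: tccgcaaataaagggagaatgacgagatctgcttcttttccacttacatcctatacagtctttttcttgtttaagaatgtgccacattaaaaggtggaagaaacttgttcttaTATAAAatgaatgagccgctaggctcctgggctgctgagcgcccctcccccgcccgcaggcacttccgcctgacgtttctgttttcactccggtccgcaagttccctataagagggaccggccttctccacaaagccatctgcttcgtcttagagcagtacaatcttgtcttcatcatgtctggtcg
The Hist3h2a window holds the octamer and the CCAAT box. That of Hist1h1b holds the CCAAT box, the TATA motif and the H1 box, and that of Hist1h4i the TATA motif alone.

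Each library held 14973332 to 21671601 counted reads, and the members took 500 to 895 of them, or 28.2 to 47.6 CPM (read counts scaled to a common library size after TMM). The members made up 0.00381% of all counted reads, so 1 read is worth 0.048 to 0.064 CPM and most members rest on few reads. Among the 17 members that passed edgeR's filter on low counts, the median biological coefficient of variation was 32.7%, against 10.5% over all 12878 genes tested, at a median of 0.82 CPM against 30.9. Cd79b, a part of the B-cell receptor, was read in every library, at 1840 to 2150 CPM in WT mice, 1460 to 1650 in Max KO mice, 946 to 1190 in EuMyc mice and 1220 to 1500 in EuMyc Max KO mice. It is 1 of 9 B-lineage markers, which summed to 11300 to 12200 CPM in WT mice and 9570 to 10600 in Max KO mice. The sums were 4580 to 5450 CPM in EuMyc mice and 7790 to 9510 in EuMyc Max KO mice. All 9 were called lower in EuMyc than in WT, and their part in the histone values was not tested. Max was read at 119 ± 16.8 CPM (SD, n = 3 here and below) in WT mice, 101 ± 1.28 in Max KO mice, 128 ± 1.87 in EuMyc mice and 105 ± 3.15 in EuMyc Max KO mice, and counts over the whole gene do not show how complete the deletion was. Max had a log2 fold change of -0.23 in Max KO against WT (adjusted p = 0.0623, edgeR) and of -0.29 in EuMyc Max KO against EuMyc (adjusted p = 0.00462, edgeR). Myc was at 105.5 ± 9.37, 126 ± 8.37, 1010 ± 37.1 and 522 ± 39.55 CPM in the same order. EuMyc Max KO replicates 1 and 2 stood apart from replicate 3 in erythroid markers, whose summed level was 5950, 4040 and 1150 CPM. WT replicate 1 stood apart within the histone genes, with the highest value of the 3 WT mice in 17 of the 21 members.

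**Figure D1:**
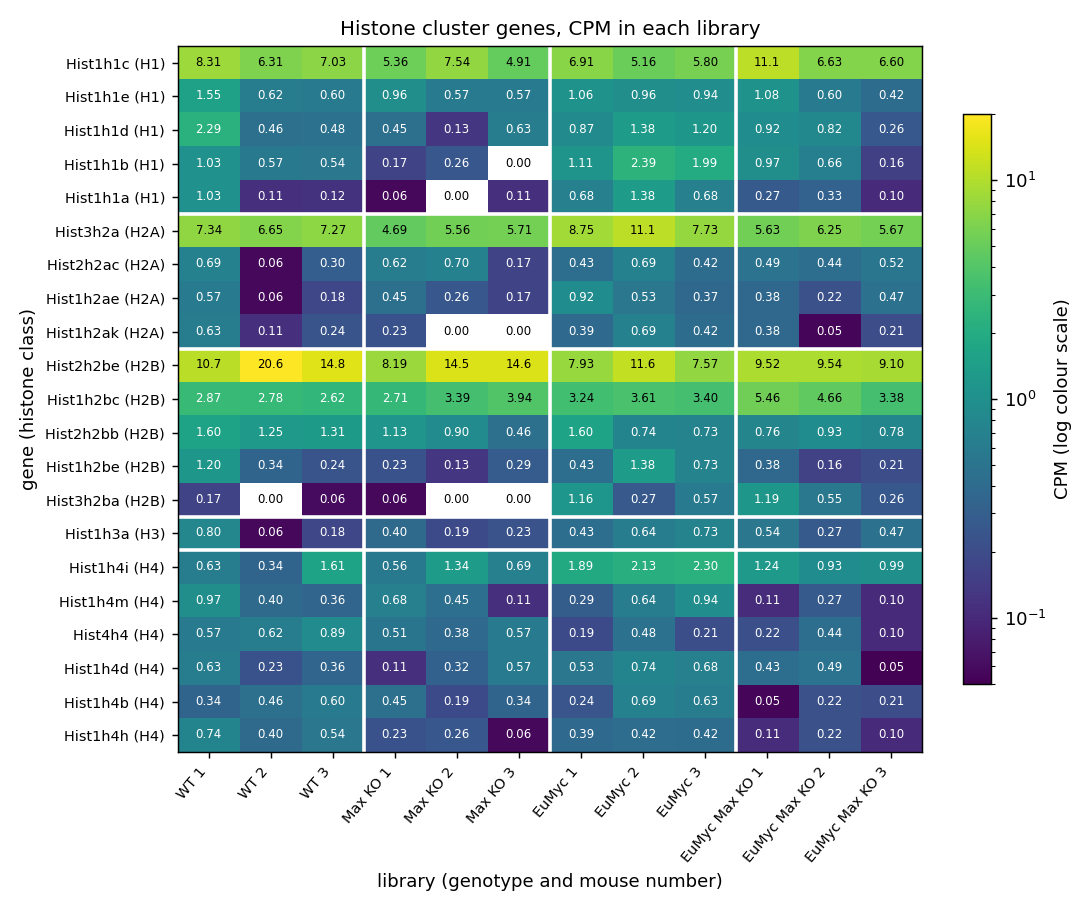
Level of each of the 21 members (rows, grouped by histone class) in each of the 12 libraries (columns), in CPM on a log colour scale; white marks a count of 0. Hist2h2be, Hist3h2a, Hist1h1c and Hist1h2bc stay bright in every library, and most other rows are brightest in EuMyc mice and in WT replicate 1.

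A few genes held most of the histone reads. Hist2h2be (2476 counts over the 12 libraries), Hist3h2a (1501), Hist1h1c (1477) and Hist1h2bc (764) made up 74.9% of the member counts. Their sum was 32.4 ± 3.62 CPM in WT mice, 27 ± 5.35 in Max KO mice, 27.6 ± 3.52 in EuMyc mice and 27.8 ± 3.54 in EuMyc Max KO mice, with overlapping ranges in all 4 groups. The other 17 members summed to 15.5, 6.08 and 8.58 CPM in the WT mice, 7.28, 6.07 and 4.97 in Max KO mice, 12.6, 16.2 and 13.9 in EuMyc mice, and 9.52, 7.62 and 5.41 in EuMyc Max KO mice. The EuMyc values lay above all Max KO and EuMyc Max KO values, and WT replicate 1 lay among the EuMyc values. Of these 17 members, 14 had their highest group mean in EuMyc mice and 0 had their lowest there. For the 13 of them that passed the filter the counts were 11 and 0. Over all genes tested, 42.4% had their highest group mean in EuMyc mice and 43.2% their lowest. The minimum and the filter both used the EuMyc counts, so genes read most in EuMyc mice passed them more easily. Hist1h1a, for example, had 91 counts in all, with 14, 26 and 13 of them in EuMyc mice. The number of members highest in EuMyc mice is therefore partly set by how members were chosen, and is no test.

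The 47 cluster symbols under the minimum gave the same order. They summed to 5.73, 2.1 and 2.92 CPM in WT mice, 2.43, 2.88 and 1.66 in Max KO mice, 7.78, 8.88 and 9.51 in EuMyc mice, and 3.57, 3.62 and 1.61 in EuMyc Max KO mice. All 3 EuMyc libraries were above the other 9, and the sums rest on 510 reads in EuMyc mice, 186 in WT mice, 117 in Max KO mice and 163 in EuMyc Max KO mice. These totals are descriptions with no test. In bulk RNA, fewer cells of a kind and less RNA per cell cannot be told apart. The minimum separates neighbours with nearly the same counts: Hist1h2ak (62) and Hist1h4h (70) are just inside it, and Hist1h3c (58), Hist1h2bj (55), Hist1h4c (54) and Hist1h2bg (53) just outside. Of the 47, 9 had 0 reads in every library, which allows up to 3 reads each at this depth and covers counting error only.

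**Figure D2:**
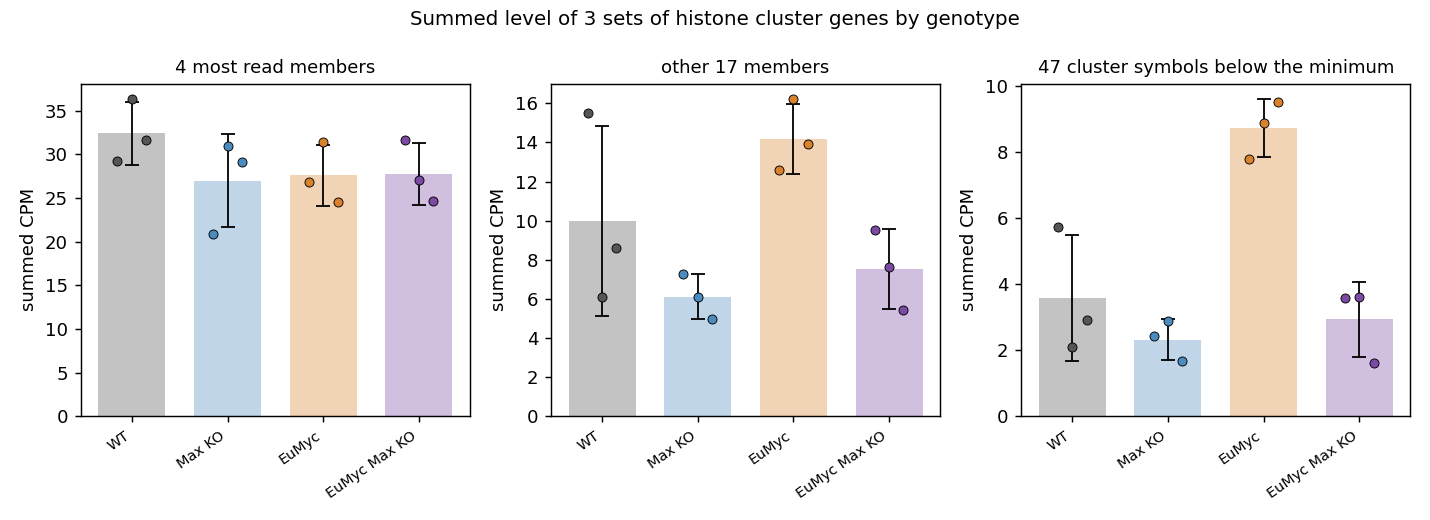
Summed CPM of the 4 most read members, the other 17 members and the 47 cluster symbols under the minimum, by genotype; points are mice, bars are means and error bars are SD (n = 3). The 4 most read members overlap across genotypes, while the 47 low symbols are highest in all 3 EuMyc mice.

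Cluster histone genes resemble each other, which bears on counting. A read that matches more than 1 place, or more than 1 gene, is set aside by HTSeq, and such reads are not in these counts. Of the annotated 50-base stretches of each gene, 100% are unique to Hist2h2be and Hist1h1b, 91.5% to Hist1h1c, 69.4% to Hist1h2bc and 68.5% to Hist3h2a, whose remainder lies in transcripts of the neighbouring gene Trim17. For Hist1h4m the share is 10.2%, with 89.8% shared with Hist1h4n, and for Hist1h4b it is 24.1%. All of Hist2h2bb lies in the gene model Gm20628, so its reads are uncertain. Among the 9 symbols with 0 reads, 2 had no unique stretch at all. The length of the reads and the annotation used for counting are not stated, so these shares describe the gene models and not the mapping itself.

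Set against length, cluster histones had far fewer counted reads than most replacement histones. The selection step is not stated, and a poly(A) library would capture cluster histones poorly. Reads shared between cluster genes were not counted. The values therefore compare counted reads, and not the amounts of mRNA in the cells. Averaged over the 12 libraries, H3f3a and H3f3b, which encode H3.3, had 210 and 202 CPM per kb of exon, H2afz, encoding H2A.Z, had 173 and H2afx 106. The highest members were Hist2h2be at 4.41 CPM per kb, Hist1h1c at 4.36, Hist3h2a at 3.2 and Hist1h2bc at 3.03, and these neighbouring values lie close together. Next came Hist2h2bb (2.67) and Hist1h4i (1.68), and the lowest members were Hist4h4 (0.151), Hist1h1d (0.111) and Hist1h2be (0.107), which have long gene models. By this mean over the 12 libraries, 9 of the 11 replacement histones lay above every member, and H1fx (1.19) and H2afy2 (0.0623) did not. In WT mice Cenpa (4.08) and H1f0 (3.3) also lay below Hist2h2be (5.86). The same held in Max KO mice, at 2.7 and 3.41 against 4.74.

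**Figure D3:**
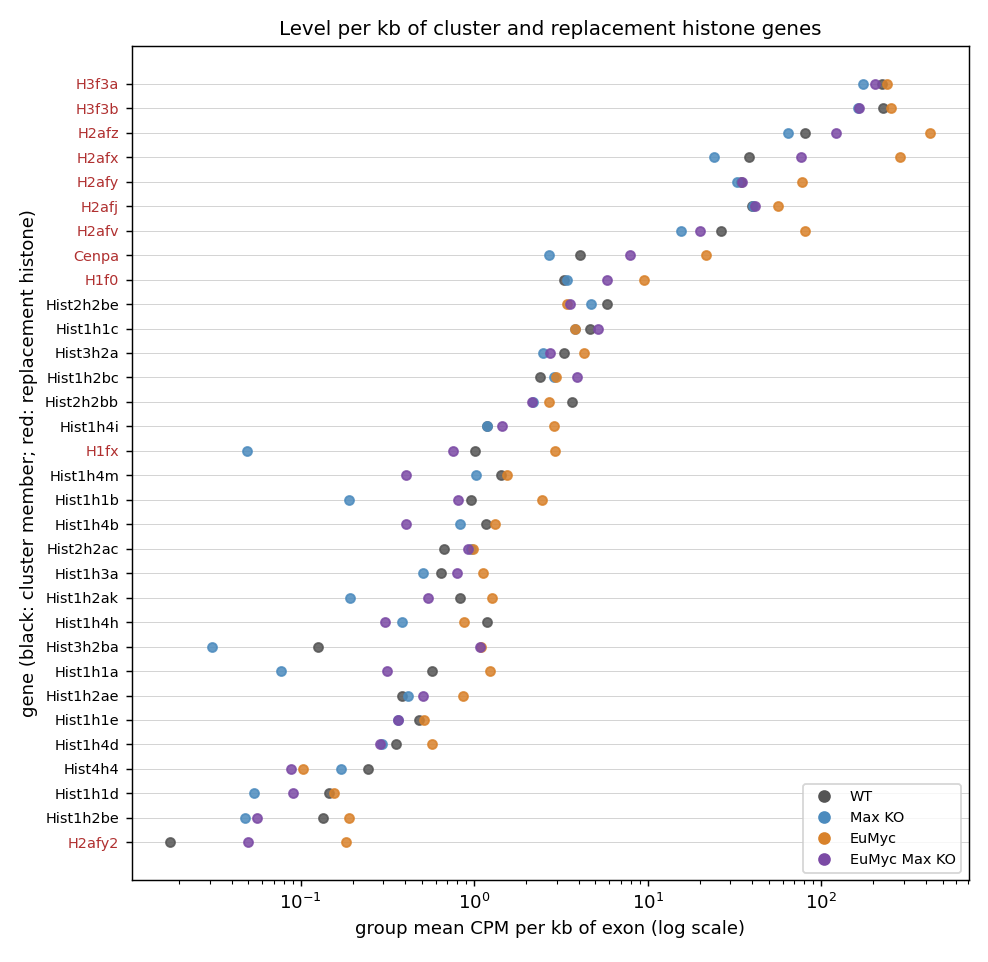
Group mean CPM per kb of annotated exon for the 21 members (black names) and 11 replacement histones (red names), on a log axis; each point is a genotype. H3f3a, H3f3b, H2afz and H2afx lie at 24.1 or above in every genotype, and no member exceeds 5.86. H2afy2 was at 0 in Max KO mice and has no point there. The axis shows counted reads, and not amounts of mRNA.

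By class, EuMyc lay highest on average in H1, H2A, H3 and H4, and WT in H2B. H1 linker histones, which bind between nucleosomes, summed to 10.3 ± 3.37 CPM in WT mice, 7.24 ± 1.16 in Max KO mice, 10.8 ± 0.374 in EuMyc mice and 10.3 ± 3.57 in EuMyc Max KO mice. H2A summed to 8.03 ± 1.18, 6.19 ± 0.29, 10.8 ± 2.04 and 6.9 ± 0.0551 in the same order. H2B, the most read class with 43.9% of member counts, summed to 20.2 ± 4.33, 16.8 ± 3.92, 15 ± 2.36 and 15.6 ± 1.8. For H3, represented by Hist1h3a alone, the values were 0.346 ± 0.4, 0.272 ± 0.108, 0.601 ± 0.151 and 0.428 ± 0.138. H4 summed to 3.56 ± 0.995, 2.61 ± 0.304, 4.6 ± 0.929 and 2.1 ± 0.511. The 3 EuMyc values lay above the 3 Max KO values in H1, H2A, H3 and H4, and above the 3 EuMyc Max KO values in H2A and H4. They overlapped WT in every class, and in H2B the EuMyc values overlapped those of all the other groups.

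**Figure D4:**
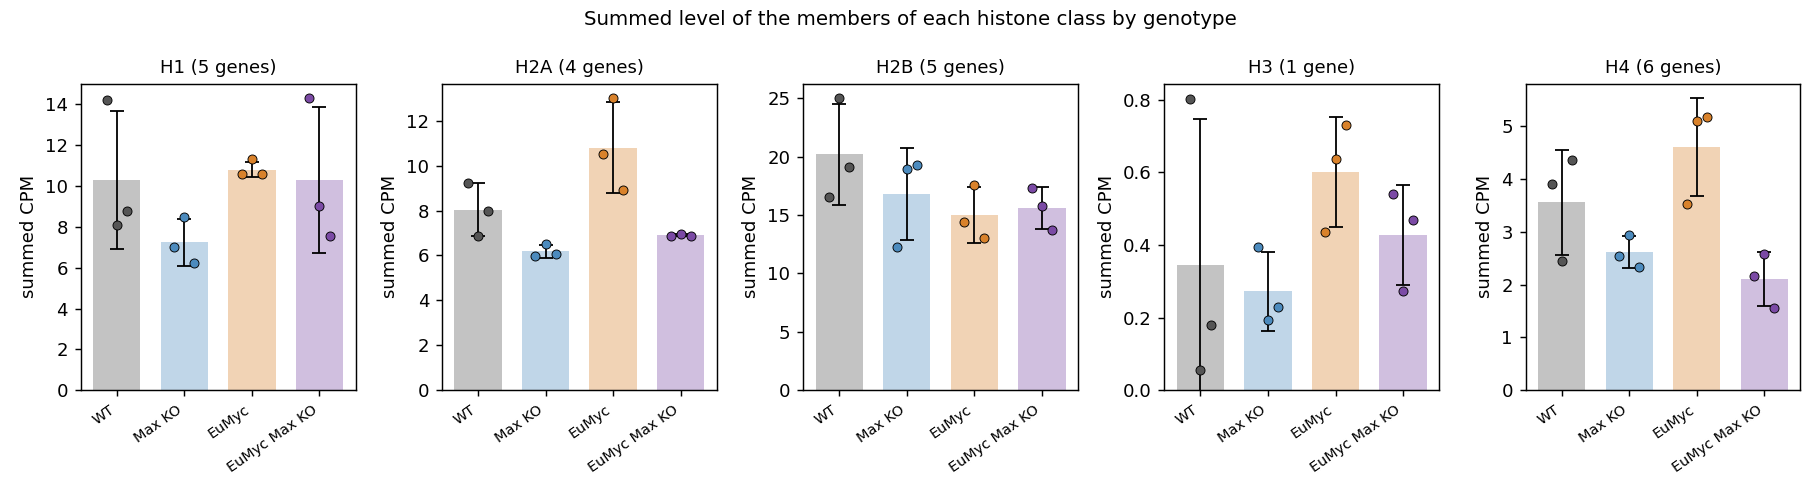
Summed CPM of the members of each histone class by genotype; points are mice, bars are means and error bars are SD (n = 3). EuMyc lies above Max KO in every class but H2B, and overlaps WT in all 5.

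Within H1, Hist1h1c carried most of the reads. It was read at 8.31, 6.31 and 7.03 CPM in WT mice, 5.36, 7.54 and 4.91 in Max KO mice, 6.91, 5.16 and 5.8 in EuMyc mice, and 11.1, 6.63 and 6.6 in EuMyc Max KO mice. All 4 groups overlap. EuMyc Max KO replicate 1 is above all the rest and is also the library with the most erythroid marker reads. Hist1h1e, another somatic linker histone, was at 1.55, 0.625 and 0.596 CPM in WT mice, 0.96, 0.575 and 0.571 in Max KO mice, 1.06, 0.957 and 0.94 in EuMyc mice, and 1.08, 0.603 and 0.416 in EuMyc Max KO mice. Hist1h1d was at 2.29, 0.455 and 0.477, then 0.452, 0.128 and 0.629, then 0.87, 1.38 and 1.2, then 0.92, 0.822 and 0.26 CPM in the same order of groups. In both genes WT replicate 1 is the highest of the 12 libraries. Hist1h1b, the linker histone H1.5, was at 1.03, 0.568 and 0.536 CPM in WT mice, 0.169, 0.256 and 0 in Max KO mice, 1.11, 2.39 and 1.99 in EuMyc mice, and 0.974, 0.658 and 0.156 in EuMyc Max KO mice. All EuMyc values were above all others, and all Max KO values were below all WT values. Hist1h1a, the linker histone H1.1, had 18, 2 and 2 counts in WT mice, 1, 0 and 2 in Max KO mice, 14, 26 and 13 in EuMyc mice, and 5, 6 and 2 in EuMyc Max KO mice, so its WT mean rests on 1 mouse.

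In H2A, Hist3h2a was the only gene with more than 100 counts in the class. It was read at 7.34, 6.65 and 7.27 CPM in WT mice, 4.69, 5.56 and 5.71 in Max KO mice, 8.75, 11.1 and 7.73 in EuMyc mice, and 5.63, 6.25 and 5.67 in EuMyc Max KO mice. Both groups without Max lie below both groups with Max, with no overlap. Hist2h2ac had 12, 1 and 5 counts in WT mice, 11, 11 and 3 in Max KO mice, 9, 13 and 8 in EuMyc mice, and 9, 8 and 10 in EuMyc Max KO mice, which overlap throughout. Hist1h2ae had 10, 1 and 3, then 8, 4 and 3, then 19, 10 and 7, then 7, 4 and 9 counts, and Hist1h2ak had 11, 2 and 4, then 4, 0 and 0, then 8, 13 and 8, then 7, 1 and 4. Those last 2 genes did not pass the filter on counts.

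In H2B, Hist2h2be varied most in WT mice, with 10.7, 20.6 and 14.8 CPM, and was at 8.19, 14.5 and 14.6 in Max KO mice, 7.93, 11.6 and 7.57 in EuMyc mice, and 9.52, 9.54 and 9.1 in EuMyc Max KO mice. The EuMyc range overlaps the WT range through WT replicate 1. Hist1h2bc was at 2.87, 2.78 and 2.62 CPM in WT mice, 2.71, 3.39 and 3.94 in Max KO mice, 3.24, 3.61 and 3.4 in EuMyc mice, and 5.46, 4.66 and 3.38 in EuMyc Max KO mice. Every transgenic mouse, with or without Max, lies above every WT mouse. Hist2h2bb was at 1.6, 1.25 and 1.31, then 1.13, 0.895 and 0.457, then 1.6, 0.744 and 0.731, then 0.757, 0.932 and 0.78 CPM, with both groups without Max below WT. Hist1h2be was at 1.2, 0.341 and 0.238, then 0.226, 0.128 and 0.286, then 0.435, 1.38 and 0.731, then 0.379, 0.164 and 0.208 CPM, with EuMyc above both groups without Max. Hist3h2ba had 3, 0 and 1 counts in WT mice, 1, 0 and 0 in Max KO mice, 24, 5 and 11 in EuMyc mice, and 22, 10 and 5 in EuMyc Max KO mice, so the transgenic mice with and without Max had similar values and no other mouse reached them. It reached the minimum through the transgenic groups, and it did not pass the filter with all 12 libraries.

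Among H3 and H4 genes, Hist1h3a, the only H3 member, had 14, 1 and 3 counts in WT mice, 7, 3 and 4 in Max KO mice, 9, 12 and 14 in EuMyc mice, and 10, 5 and 9 in EuMyc Max KO mice. Hist1h4i was the most read H4 gene, at 0.63, 0.341 and 1.61 CPM in WT mice, 0.565, 1.34 and 0.686 in Max KO mice, 1.89, 2.13 and 2.3 in EuMyc mice, and 1.24, 0.932 and 0.988 in EuMyc Max KO mice. Its 3 EuMyc values lie above the other 9. Hist1h4m was at 0.974, 0.398 and 0.357, then 0.678, 0.447 and 0.114, then 0.29, 0.638 and 0.94, then 0.108, 0.274 and 0.104 CPM, with EuMyc Max KO below both WT and EuMyc. Hist4h4, the only member on chromosome 6, was at 0.573, 0.625 and 0.893, then 0.508, 0.384 and 0.571, then 0.193, 0.478 and 0.209, then 0.216, 0.439 and 0.104 CPM, lower in both transgenic groups than in WT mice. Hist1h4b had 6, 8 and 10 counts, then 8, 3 and 6, then 5, 13 and 12, then 1, 4 and 4, with EuMyc Max KO below WT and EuMyc. Of the rest, Hist1h4d had 1 to 14 counts per library and Hist1h4h 1 to 13, with its highest mean in WT mice.

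The first comparison asks what loss of Max changes without the transgene. None of the 17 tested members passed at an adjusted p under 0.05 (edgeR quasi-likelihood test, Benjamini-Hochberg over all 12878 genes; 3 had an unadjusted p under that value), in a comparison that called 7.27% of all genes higher and 7.74% lower. Hist1h1b had a log2 fold change of -2.31 (SE 0.803; adjusted p = 0.071, edgeR), Hist1h1a of -2.71 (SE 1.09; adjusted p = 0.113, edgeR) and Hist3h2a of -0.41 (SE 0.164; adjusted p = 0.108, edgeR). The median over the 17 members was -0.413, beside -0.003 over all genes, and 14 members were below 0. By DESeq2, 1 member, Hist1h1b, was called lower. It was also called lower by edgeR without EuMyc Max KO replicate 3. The median SE of a member was 0.556 on the log2 scale, against 0.114 over all genes. Beside these values, 4 of 10 tested replacement histones fell, among them H3f3b by 0.48 on the log2 scale (SE 0.076) and H3f3a by 0.38 (SE 0.0951), and 20 of 55 replication genes fell and 0 rose. The call of H3f3a was lost without WT replicate 1, Max KO replicate 1 or Max KO replicate 2. Myeloid markers summed to 2070 to 2630 CPM in WT mice and 3420 to 4810 in Max KO mice, T-cell markers to 119 to 144 and 175 to 198, and plasma cell markers to 931 to 1630 and 425 to 520. Their part was not tested.

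The second comparison asks what the transgene changes where Max is intact. Hist1h1b and Hist1h4i rose and Hist2h2be and Hist4h4 fell, 2 and 2 of 17, in a comparison that called 36.7% of all genes higher and 34.9% lower. Hist1h4i had a log2 fold change of 1.29 (SE 0.463; adjusted p = 0.0234, edgeR) and Hist1h1b of 1.35 (SE 0.573; adjusted p = 0.0496, edgeR). Hist2h2be had -0.77 (SE 0.266; adjusted p = 0.0211, edgeR) and Hist4h4 -1.24 (SE 0.512; adjusted p = 0.0443, edgeR). Hist3h2a missed narrowly at 0.37 (SE 0.16; adjusted p = 0.0507, edgeR), with all EuMyc mice above all WT mice. The members' share of calls is below the share over all genes, at an SE that is larger (median 0.515 against 0.114). The median log2 fold change was 0.308, beside 0.012 over all genes, and 13 of 17 were above 0.

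Each of these 4 calls depended on single libraries. WT replicate 1 held high values of many members, and without it 5 members were higher (Hist1h1a, Hist1h1b, Hist1h2be, Hist1h3a and Hist3h2ba) and Hist2h2be alone was lower. Without WT replicate 2 none of the 4 was called, and without EuMyc replicate 3 none was called either. Hist1h4i was lost also without WT replicate 1 or EuMyc replicate 2, and Hist2h2be without EuMyc replicate 1. Hist1h1b was lost in 12 of 19 alternatives (adjusted p from 0.0101 to 0.157, edgeR or DESeq2), each other scaling among them, and on leaving out any of 7 libraries: replicates 2 and 3 of WT, 1 and 2 of Max KO, 2 and 3 of EuMyc, and 2 of EuMyc Max KO. Hist4h4 was lost in 12 of 19 (adjusted p from 0.0218 to 0.149, edgeR or DESeq2), including without any 1 of the WT or Max KO mice, EuMyc replicate 1 or 3, or EuMyc Max KO replicate 1. No sign changed.

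Most genes of the surrounding lists rose here. All 55 replication genes rose (median 2.2), and of 36 genes for transcription, processing and chaperoning of cluster histones 31 rose and 1 fell (median 0.943). Slbp, whose product binds the stem-loop, was at 76.3 ± 6.25 CPM in WT mice, 56.1 ± 1.54 in Max KO mice, 252 ± 16.9 in EuMyc mice and 107 ± 26.5 in EuMyc Max KO mice, and rose by 1.72 in EuMyc (SE 0.149). Npat, the cofactor that switches on cluster genes at S phase entry, rose by 0.63 (SE 0.0664), and Casp8ap2, a protein of the same nuclear bodies, by 0.67 (SE 0.0996). Nasp, which carries H3 and H4, rose by 1.95 (SE 0.0677). Of 10 tested replacement histones 8 rose and 0 fell, with H2afz going from 142 ± 9.75 to 756 ± 37.7 CPM (2.41, SE 0.114), H2afx from 53.5 ± 7.44 to 391.8 ± 34.6 (2.87, SE 0.27) and H1f0 from 6.78 ± 1.77 to 19.6 ± 0.77 (1.53, SE 0.34). H3f3a (0.09, SE 0.0948) and H3f3b (0.14, SE 0.0758) were not called. Of 12 chaperones of replacement histones 6 rose and 0 fell, among them Hira (1.16, SE 0.053) and Anp32e (1.72, SE 0.0936). Marker sums of other cells differed as well: T-cell markers summed to 119 to 144 CPM in WT mice and 32.7 to 34.6 in EuMyc mice, myeloid markers to 2070 to 2630 and 1130 to 1360, and erythroid markers to 160 to 411 and 719 to 850. Their part in the histone values was not tested.

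The third comparison asks what loss of Max changes in transgenic cells. Of 17 members 6 fell and 0 rose, in a comparison that called 36.1% of all genes lower and 37.6% higher. Hist3h2a fell by 0.65 on the log2 scale (SE 0.161; adjusted p = 0.00261, edgeR), from 9.18 ± 1.7 to 5.85 ± 0.348 CPM. The linker histones Hist1h1a (-1.93, SE 0.761; adjusted p = 0.0349, edgeR) and Hist1h1b (-1.61, SE 0.581; adjusted p = 0.0234, edgeR) fell. So did the H4 genes Hist1h4m (-1.90, SE 0.729; adjusted p = 0.0314, edgeR) and Hist1h4b (-1.64, SE 0.599; adjusted p = 0.0248, edgeR), and the H2B gene Hist1h2be (-1.73, SE 0.663; adjusted p = 0.0313, edgeR). In all 6 the EuMyc Max KO mice lay below the EuMyc mice without overlap. Hist1h4i had -0.99 (SE 0.449; adjusted p = 0.0617, edgeR), also without overlap. The median over the members was -0.65, beside 0.028 over all genes.

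The call of Hist3h2a held in 19 of 19 alternatives, with adjusted p from 0.000762 to 0.017 (edgeR or DESeq2). DESeq2 called 4 members here, without Hist1h1a and Hist1h4b. With only the groups compared 4 were called, with Hist1h4i added. Hist1h2be, Hist1h4b and Hist1h4m did not pass the filter on counts in that setting and were not tested. Without EuMyc replicate 2 the other 5 calls were lost and Hist3h2a remained. The number lower was 3 without EuMyc replicate 3, 3 without EuMyc Max KO replicate 1, 3 without replicate 2 and 2 without replicate 3. Without EuMyc Max KO replicate 3, Hist1h1c and Hist1h2bc were called higher, as they were with scaling by library totals alone. Hist1h1c had 0.44 (SE 0.236; adjusted p = 0.106, edgeR) and Hist1h2bc 0.40 (SE 0.216; adjusted p = 0.114, edgeR). Across the 3 EuMyc Max KO mice, Hist1h2bc was at 5.46, 4.66 and 3.38 CPM and Hist1h1c at 11.1, 6.63 and 6.6, where the 13 erythroid markers in the files summed to 5950, 4040 and 1150 CPM (719 to 850 in EuMyc), with Hbb-bt at 0 in every library. The part of these cells in the 2 values was not tested.

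**Figure D5:**
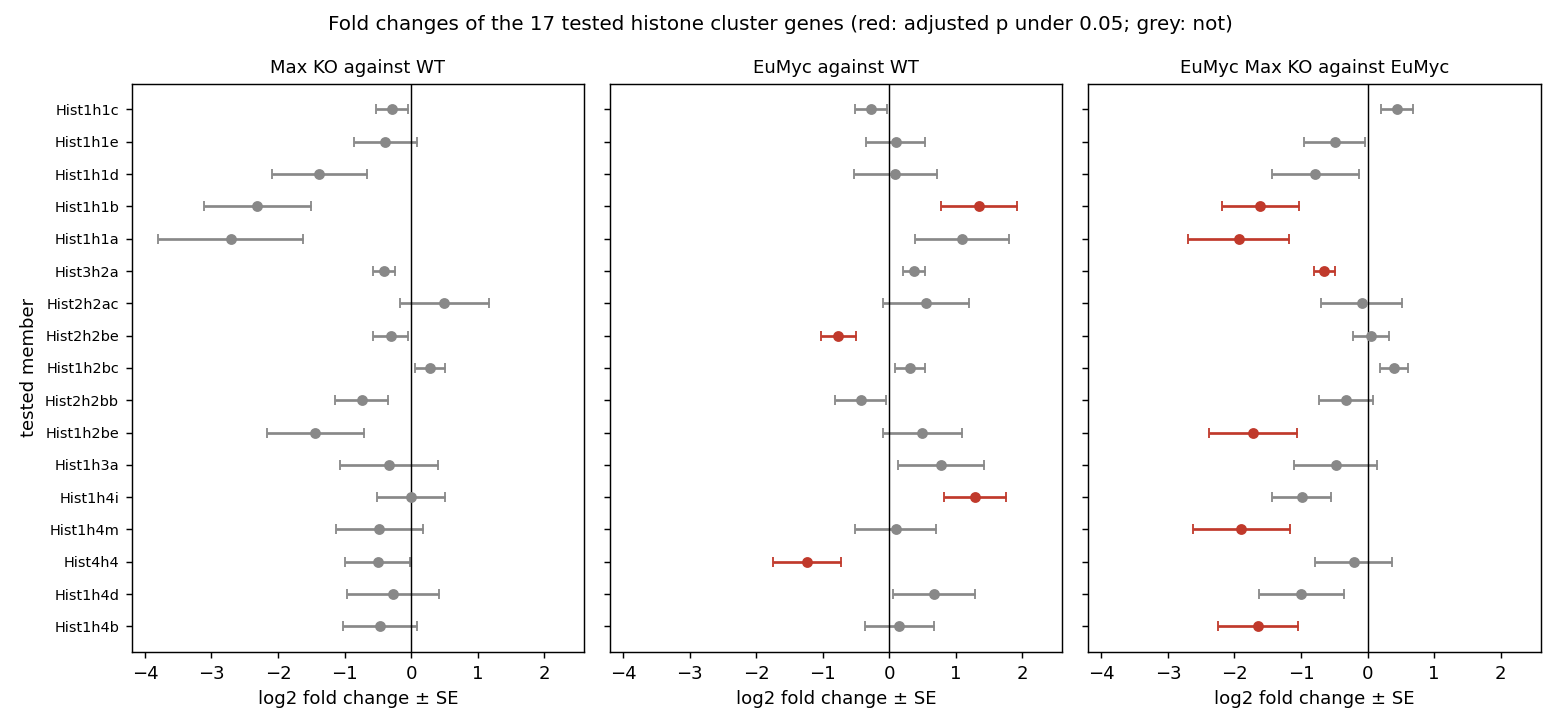
log2 fold change with its standard error for the 17 tested members in 3 comparisons (edgeR); red marks an adjusted p under 0.05. No member is red for Max KO against WT, 4 are for EuMyc against WT, in both directions, and 6 are for EuMyc Max KO against EuMyc, all below 0.

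The surrounding genes fell in the same comparison. Of 55 replication genes 54 fell and 0 rose (median -1.66), and of 36 histone supply genes 30 fell and 2 rose. Slbp fell by 1.23 (SE 0.146), Npat by 0.58 (SE 0.0662), Casp8ap2 by 0.75 (SE 0.0997) and Nasp by 1.89 (SE 0.0674). Of 10 replacement histones 9 fell, with H2afz at -1.81 (SE 0.111), H2afx at -1.89 (SE 0.258) and H3f3b at -0.60 (SE 0.076), and H1f0 did not pass at -0.71 (SE 0.328; adjusted p = 0.0712, edgeR). H3f3a was called at -0.23 (SE 0.0949; adjusted p = 0.0448, edgeR), but not in 11 of 19 alternatives. Of 12 chaperones of replacement histones 6 fell and 1 rose. T-cell markers summed to 176 to 184 CPM in EuMyc Max KO mice and myeloid markers to 3660 to 6640, against 32.7 to 34.6 and 1130 to 1360 in EuMyc mice, and their part was not tested.

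The remaining comparisons set the double mutant against the other groups. Against Max KO, which shows the transgene without Max, 0 members were called in either direction (1 had an unadjusted p under 0.05, and DESeq2 called 1, Hist3h2ba, higher), where 10.7% of all genes were higher and 3.69% lower. Hist1h1b had 2.05 (SE 0.815; adjusted p = 0.113, edgeR), and was called without EuMyc Max KO replicate 3. In the same comparison 47 of 55 replication genes, 15 of 36 histone supply genes and 4 of 10 replacement histones rose. Of 11 tested erythroid markers 9 rose as well (median 4.96), from a sum of 229 to 532 CPM in Max KO mice. Across the 3 EuMyc Max KO mice the replication genes summed to 4140, 3540 and 2900 CPM, beside 5950, 4040 and 1150 for the erythroid markers. The part of these markers was not tested. Against WT, Hist1h2bc rose by 0.70 (SE 0.221; adjusted p = 0.0313, edgeR), with means of 2.76 ± 0.125 and 4.5 ± 1.05 CPM, 1 of 17 where 17% of all genes were higher, and 0 of 17 were lower where 10.8% of all genes were. Its call was lost without any 1 of the 3 WT mice, and without the first or second EuMyc Max KO mouse (adjusted p from 0.0088 to 0.143 over 19 alternatives, edgeR or DESeq2). Hist4h4 (-1.45, SE 0.527; adjusted p = 0.058, edgeR) and Hist2h2be (-0.71, SE 0.266; adjusted p = 0.0665, edgeR) were not called, with every EuMyc Max KO mouse below every WT mouse.

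Whether the effect of Max loss differs with the transgene was tested by the interaction. No member passed (0 had an unadjusted p under 0.05, and DESeq2 called 0), where 27.8% of all genes were higher and 27.9% lower. Hist1h4i was called lower without WT replicate 3, and Hist1h1c higher without Max KO replicate 2 or EuMyc Max KO replicate 3. With all libraries the nearest was Hist1h1c at 0.73 (SE 0.335; adjusted p = 0.0826, edgeR), and Hist3h2a, the member with the smallest SE, had -0.24 (95% interval -0.733 to 0.26). For Hist3h2a the log2 fold change on loss of Max was -0.41 without the transgene and -0.65 with it, and these were not shown to differ. Slbp, Npat, Casp8ap2, H2afx and H2afz did pass, while H1f0, H3f3a and H3f3b did not.

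Members were also summed by their annotated transcript end. The 5 whose model ends within 100 bases of the hairpin summed to 1.36 to 3.55 CPM in WT mice, 0.914 to 2.37 in Max KO mice, 1.79 to 3.13 in EuMyc mice and 1.3 to 1.43 in EuMyc Max KO mice. EuMyc lay within the WT range and above EuMyc Max KO. Over all 23 cluster symbols with such an end the sums were 1.54 to 5.1, 1.09 to 3.33, 5.61 to 8.36 and 2.18 to 2.96 CPM, with EuMyc above the others. The 10 members with a longer model summed to 15.6 to 23.3, 13.4 to 16.2, 20.5 to 24.1 and 15 to 22.6 CPM, where EuMyc lay above Max KO and overlapped WT and EuMyc Max KO. The 6 members without the hairpin summed to 17.9 to 25.4, 12.5 to 19.1, 14.8 to 20.4 and 13.7 to 17.4 CPM, most of it from Hist2h2be and Hist1h2bc. Without those 2 genes the sums were 2.05 to 4.29, 0.571 to 1.58, 3.77 to 5.21 and 1.25 to 2.38 CPM, where EuMyc overlapped WT and lay above both groups without Max.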

How the data were processed

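RNA-seq was read in B220+ splenocytes of 12 mice, 3 individual mice per genotype. The authors deposited raw counts per gene from HTSeq 0.6.1 after bcl2fastq 1.8.4 and TopHat2 2.1.0 on mm10, per the submitters' processing notes; the annotation, strand setting and read length used were not given in the sources used here. The 5 HTSeq summary rows were left out: reads mapped to more than 1 place were 20.3% to 27.9% per library and ambiguous ones 0.748% to 1.45%. Counts were tested with edgeR 4.0.16 (R 4.3.3, limma 3.58.1): filterByExpr, TMM, 1 model over 4 genotypes and 12 libraries with 8 residual degrees of freedom, robust quasi-likelihood test, Benjamini-Hochberg adjustment over the 12878 genes tested, threshold 0.05. Depth per library was 14973332 to 21671601 counts. An exact test of 3 against 3 cannot go below 0.1 and was not used. Standard errors are on the log2 scale. Every tested member is named, and other genes by list (replication, histone supply, replacement histones, their chaperones). Members and lists were chosen with earlier results of these data known. Alternatives were other scalings, no filter, DESeq2 1.42.0, only the groups compared, a replicate block, other minimums and each library left out. The edgeR step was tested on simulated data, where the changed genes had more counts than most members and a spread below the members' median. That test does not speak for genes read as little as most members. Deviations of same-numbered mice of different genotypes correlated at -0.117 to 0.344, with 4 of 18 over 0.1. Between WT and Max KO these correlations were 0.179, 0.344 and 0.0951, against -0.262 to 0.091 for mice of different numbers. Shared deviation by number in those 2 genotypes is therefore not excluded. The numbers were not taken as pairs in the main model, and a pairing of WT with Max KO alone was not fitted.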

Additional observations from a re-analysis of the deposited data

Results flagged for a closer look

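For 5 genes around the cluster histones, the effect of Max loss differed between mice with and without the transgene, by the interaction test. The difference on the log2 scale was -0.79 for Slbp (SE 0.208; adjusted p = 0.00744, edgeR), -0.61 for Npat (SE 0.094; adjusted p = 0.000127, edgeR) and -0.64 for Casp8ap2 (SE 0.141; adjusted p = 0.00198, edgeR). It was -1.21 for H2afx (SE 0.367; adjusted p = 0.0183, edgeR) and -1.49 for H2afz (SE 0.155; adjusted p = 5.88e-06, edgeR). All 5 fell in EuMyc Max KO against EuMyc, and 0 of them were called in Max KO against WT. There the log2 fold change was -0.44 for Slbp (adjusted p = 0.0703, edgeR), 0.03 for Npat, -0.11 for Casp8ap2, -0.68 for H2afx and -0.32 for H2afz. Across the 3 EuMyc Max KO mice Slbp was at 130, 113 and 78 CPM, H2afx at 153, 97.7 and 65.8, and H2afz at 262, 202 and 182. Casp8ap2 was at 59.7, 55.4 and 53.9 CPM, and Npat at 47.7, 45.9 and 46.6. The erythroid markers summed to 5950, 4040 and 1150 CPM in these mice, and their part was not tested. Each interaction call held in 18 of 18 alternatives.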

How the results depend on the processing

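No log2 fold change of a called member changed sign, nor did the calls followed for Slbp, Npat, Casp8ap2, H2afx, H2afz, H1f0, H3f3a and H3f3b. Values that were not called were not followed. Members higher in EuMyc than in WT numbered 1 with RLE factors, 1 with upper-quartile factors, 1 with library totals and 0 of those with at least 600 counts, and 1 to 5 with 1 library left out. Members lower there numbered 1 without the filter, 1 by DESeq2, 1 of those with at least 600 counts, and 0 to 2 with 1 library left out. In EuMyc Max KO against EuMyc, library totals gave 2 higher (0 to 2 with 1 library left out), and a minimum of 600 gave 1 lower (1 to 7 with 1 left out). In Max KO against WT, DESeq2 gave 1 lower (0 to 1 with 1 left out). Against Max KO, EuMyc Max KO had 1 higher without the filter and 1 by DESeq2 (0 to 2 with 1 left out). Against WT it had 2 higher without the filter, 2 by DESeq2 and 0 with only the groups compared (0 to 2 with 1 left out). It had 1 lower with upper-quartile factors, 1 without the filter and 2 by DESeq2 (0 to 1 with 1 left out). The interaction had 0 to 1 higher and 0 to 1 lower with 1 left out. The cause of these shifts was not tested.

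With a replicate block, 1 member was lower in EuMyc than in WT and 1 lower in EuMyc Max KO than in WT; no other count of members moved by over 1.5 times.

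Class totals moved with the minimum. With members of at least 600 counts, H1 was Hist1h1c alone, at 5.94 CPM in Max KO and 5.96 in EuMyc, below WT (7.22) and EuMyc Max KO (8.11), H2A 5.32 in Max KO and 5.85 in EuMyc Max KO, and H2B 12.4 in EuMyc; H3 and H4 had no such member. With at least 20 counts, H2A was 7.13 in EuMyc Max KO and H2B 18.3 in EuMyc, H3 was 1.33, 0.955, 3.21 and 1.09 in WT, Max KO, EuMyc and EuMyc Max KO, and H4 was 4.72, 3.18 and 5.54 in the first 3. H1 in EuMyc was 10.2 with upper-quartile factors and 10.2 with library totals, and H2A in EuMyc Max KO was 7.04 with library totals. The median of all genes in EuMyc against WT was 0.012 with TMM, -0.115 with upper-quartile factors and -0.092 with library totals; in EuMyc Max KO against EuMyc it was 0.028, 0.116 and 0.148. Higher genes made up 48.4% of all called in Max KO against WT, and 61.1% with library totals; in EuMyc Max KO against Max KO 74.4%, and 63.6% with upper-quartile factors. Depth limits most members, which rest on few reads per genotype.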

Other observations

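With no filter on low counts, 38 cluster symbols under the minimum could be tested among 17798 genes. In EuMyc against WT 10 of the 38 were called, all higher, where 27.1% of all genes were higher and 25.4% lower: Hist1h2ah, Hist1h2bh, Hist1h2bj, Hist1h2bk, Hist1h2bm, Hist1h2bp, Hist1h3c, Hist1h3d, Hist1h3g and Hist1h4j. In EuMyc Max KO against EuMyc 7 of the 38 were called, all lower, where 26.6% of all genes were lower and 27.9% higher: Hist1h2an, Hist1h2bj, Hist1h2bk, Hist1h2bp, Hist1h3c, Hist1h3g and Hist1h4j. Neither count is above the share over all genes. Hist1h3g, an H3 gene chosen here after its values were seen, had 0, 0 and 1 counts in WT mice, 0, 1 and 0 in Max KO mice, 15, 9 and 18 in EuMyc mice, and 0, 5 and 1 in EuMyc Max KO mice.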
